A study of Mus musculus with 8 samples.

Results

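Homeobox genes encode transcription factors that bind DNA through a homeodomain. The genes described here were the array rows whose RefSeq accession named a numbered mouse gene of the Hoxa, Hoxb, Hoxc, Hoxd, Dlx, Msx, Lhx, Vax, Pitx, Irx, Emx, Otx, Meis or sine oculis (here Six6) family, with values on at least 3 arrays. Of 21766 probes, 45 rows belonged to these families and 43 had enough values, each for a different gene, among 6585 genes named in all. Probe sequences were not analysed here, and cross-hybridization between members of a family was not tested. Hoxa13 had no value. The 43 comprised 18 Hox genes, 7 Lhx, 4 Dlx, 3 each of Msx, Irx and Meis, 2 each of Pitx and Vax, and Six6. The other families, and genes such as Hoxc13 and Dlx3, were not among the rows found and were not analysed here.

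RNA from skin of near naked hairless mutant mice aged 7 days was set against RNA of wild type mice of the same age on 8 arrays with 2 colours. Mutant RNA carried Cy5 on arrays 2, 4, 6 and 7 and Cy3 on arrays 1, 3, 5 and 8, with wild type RNA in the other dye. The sources used here give no strain, sex, zygosity or body site. According to the design text, 5 biological replicates came from the same litter. Which animal was on which array is not labelled, so some of the 8 arrays shared an animal's RNA and p-values over arrays are too small.

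Values are log2 ratios of mutant over wild type, the likely direction, since the mutant is named first in the design text and held in channel 1. With the opposite direction every sign below would turn. The base of the logarithm is not given in the sources used here, and base 2 was assumed. Whether the deposited ratios had already been turned to the same direction on every array was read from 232 repeat spots of Gapdh, a glycolysis gene. Between arrays of opposite dye orientation their values correlated below 0 in 16 of 16 pairs (median r = -0.45), and between arrays of the same orientation above 0 in 12 of 12 pairs (median r = 0.55). Over all probes the pairs of opposite orientation were of mixed sign, above 0 in 6 of 16 (median r = -0.02). Those of the same orientation were above 0 in 12 of 12 (median r = 0.49). On the basis of the Gapdh spots the deposited signs were kept as they stand, and a reading as Cy5 over Cy3 was run as an alternative. Spot intensities were not analysed here, so it is not known how far a homeobox signal stood above background, and the number of arrays limits the precision.

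Hox genes lie in 4 chromosomal clusters and give cells of the embryo, and fibroblasts of adult skin, a record of their position along the body. In the hair follicle, Msx2 and Dlx3 act in the matrix that builds the shaft, and Lhx2 marks stem and progenitor cells in mouse. Vax1, Six6, Lhx3 and Lhx4 are known for the forebrain, eye and pituitary rather than for skin. In whole skin a lower ratio can reflect fewer cells of a type or less RNA per cell, and these cannot be told apart.

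Of the 43 homeobox genes 30 were tested, of which 2 were lower in mutant skin and none higher. Among all probes tested 3.53% were lower and 0.676% higher. Vax1, needed for the ventral forebrain and optic nerve, was 4.07-fold lower in the fit, and Six6, a factor of the developing retina and pituitary, was 1.82-fold lower. The size for Vax1 leaned on array 2, without which its log2 ratio was -1.50 rather than -2.02. Both had ratios below 0 on every array that measured them. The follicle genes Msx2 and Lhx2 had fitted log2 ratios of 0.03 and 0.37, and neither passed. The tested genes of the Hox, Dlx, Irx, Pitx and Meis families did not pass, and 13 of the 43 genes were not tested.

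The test was run on genes with values on at least 3 arrays of each dye orientation, 30 of the 43, in a limma model of the ratio and the dye, with p-values adjusted over 11974 probes. Of the 30, 2 were lower, 0 were higher and 28 did not pass the threshold of 0.05. Across all probes 3.53% were lower and 0.676% were higher, so that the counts of homeobox genes were near the share of the whole table. At an unadjusted p below 0.05 there were 5 of the 30, or 16.7%, against 20.5% of all probes. The fitted log2 ratio was above 0 for 20 genes (66.7%, against 55.0% of all probes) and below 0 for 10. The median was 0.14, against 0.05 over all probes. The median size of the fitted ratio was 0.21, against 0.26 over all probes, and the median standard error was 0.22, against 0.23. With quantile normalization 3 homeobox genes were lower and 0 higher, while over all probes 380 were higher and 757 lower, against 81 and 423 as deposited.

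**Figure D1:**
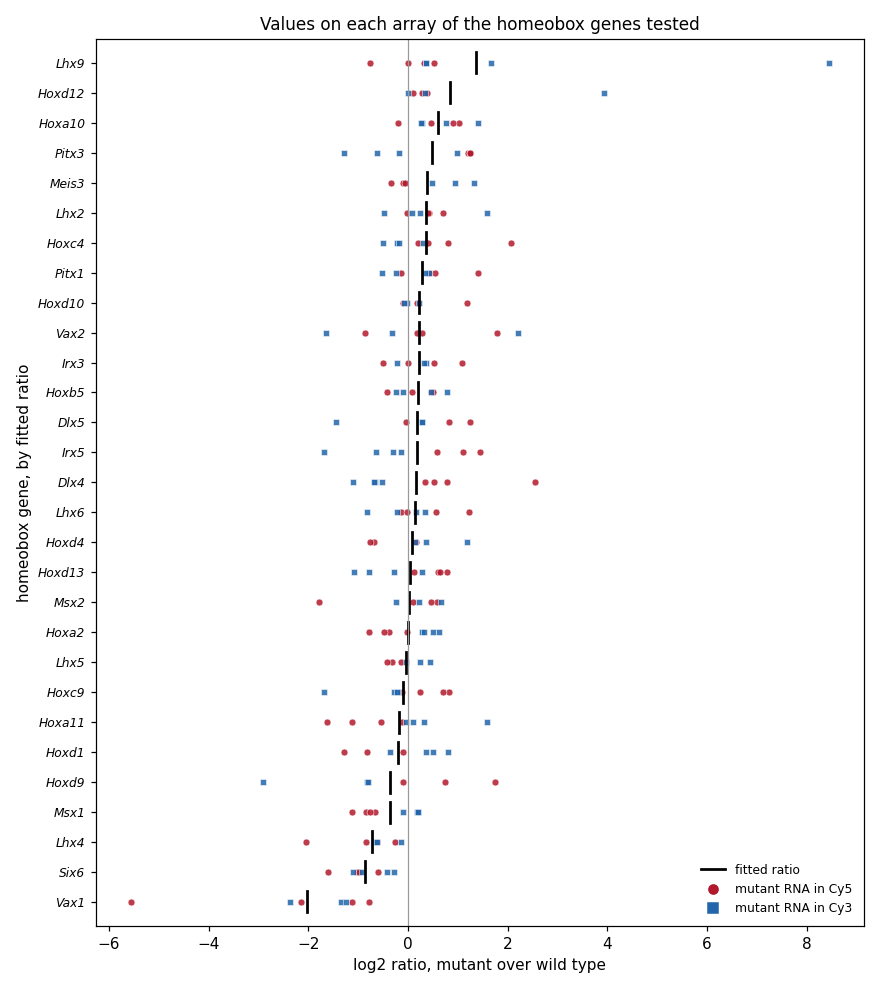
Log2 ratio of mutant over wild type (x axis) on each array for 29 homeobox genes tested (y axis, ordered by fitted ratio), with circles for mutant RNA in Cy5, squares for mutant RNA in Cy3 and a black bar for the fitted ratio. Vax1, Six6 and Lhx4 lie below 0 on every array that measured them, and Lhx9 and Hoxd12 each have their highest value on array 8 (8.44 and 3.92).

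The 3 genes with the lowest fitted ratios are shown with the 250 bases before their annotated start, to place their regulatory sequence beside their values. The sequences are those of RefSeq on the build GRCm38.p6, written 5′ to 3′ along the gene. Capitals mark CCAAT and its reverse complement, the letters of a common promoter element, while TAATTA, the core bound by many homeodomains, and TATAAA were searched on both strands as well. Of the 43 genes, 33 had an entry in the promoter table.
Vax1, chr19:59170398-59170647, minus strand: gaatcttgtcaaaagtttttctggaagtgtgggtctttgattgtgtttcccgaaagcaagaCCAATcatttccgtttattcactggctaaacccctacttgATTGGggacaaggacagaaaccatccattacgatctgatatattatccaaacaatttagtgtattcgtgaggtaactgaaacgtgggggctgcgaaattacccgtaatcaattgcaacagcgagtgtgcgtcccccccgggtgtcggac
Six6, chr12:72939632-72939881, plus strand: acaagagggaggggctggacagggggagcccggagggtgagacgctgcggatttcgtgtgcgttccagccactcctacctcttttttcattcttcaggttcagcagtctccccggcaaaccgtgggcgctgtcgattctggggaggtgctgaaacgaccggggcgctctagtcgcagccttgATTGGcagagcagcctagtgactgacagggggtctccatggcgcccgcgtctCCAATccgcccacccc
Lhx4, chr1:155742028-155742277, minus strand: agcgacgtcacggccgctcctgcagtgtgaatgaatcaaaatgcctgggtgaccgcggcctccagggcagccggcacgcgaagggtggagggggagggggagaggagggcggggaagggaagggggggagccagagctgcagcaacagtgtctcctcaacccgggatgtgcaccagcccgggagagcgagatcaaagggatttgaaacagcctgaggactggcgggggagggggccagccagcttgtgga

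The windows of Vax1 and Six6 held 2 CCAAT matches each and that of Lhx4 held none, and TAATTA and TATAAA were in none of the 3. Among the 33 homeobox promoters 19 (57.6%) held CCAAT, against 36.3% of 17491 promoters of protein-coding genes. TAATTA was in 2 (6.06%), Msx2 and Hoxd11, against 4.45%, and TATAAA in 5 (15.2%), against 12.4%. The homeobox windows were richer in G and C, with a median of 62.0% and 13 CpG dinucleotides, against 55.2% and 10 over protein-coding genes. The Vax1 window departed from this at 44.8% with 11 CpG, while Six6 had 62.8% and Lhx4 66.0%. These matches describe the letters of the windows and were set against no measurement of binding.

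Vax1 was measured on 7 arrays. With mutant RNA in Cy5 its log2 ratio was -5.56, -2.15, -1.12 and -0.78 on arrays 2, 4, 6 and 7, and with mutant RNA in Cy3 it was -1.35, -1.24 and -2.36 on arrays 1, 5 and 8. All 7 values lay below 0, and array 2 stood far below the rest. The fitted log2 ratio was -2.02 ± 0.47 (SE, 7 arrays), with a 95% interval from -3.06 to -0.99 and an adjusted p of 0.0349 in limma. Without array 2 it was -1.50 with an adjusted p of 0.0138, so the call did not rest on that array. Leaving out array 1 (adjusted p = 0.0725), array 4 (0.0799), array 5 (0.0660) or array 8 (0.102) ended it, as did using arrays 4 to 8 alone (-1.57, adjusted p = 0.0587).

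Its paralogue Vax2, a factor of the ventral retina, went no single way. Its 7 values ran from -1.65 to 2.21 with a median of 0.18, with 4 above 0 and 3 below. The fitted log2 ratio was 0.21, with an interval from -0.70 to 1.13, and the sign turned to -0.32 without array 8 and to -0.03 without array 2.

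Six6 was measured on all 8 arrays. With mutant RNA in Cy5 its log2 ratio was -1.02, -0.60, -0.99 and -1.60 on arrays 2, 4, 6 and 7, and with mutant RNA in Cy3 it was -1.11, -0.27, -0.42 and -0.92 on arrays 1, 3, 5 and 8. The orientations overlapped and no value reached 0. The fit gave -0.87 ± 0.18 (SE, 8 arrays), with an interval from -1.27 to -0.47 and an adjusted p of 0.0196 in limma. The ratio moved between -0.94 and -0.78 when arrays were left out in turn. Six6 no longer passed when array 1 (adjusted p = 0.0878), array 6 (0.0584) or array 7 (0.0600) was left out, or on arrays 4 to 8 alone (adjusted p = 0.159).

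The LIM homeodomain genes, which specify neurons, pituitary cells and, for Lhx2, follicle progenitors, had 5 members tested and none past the threshold. Lhx4, a factor of the pituitary and of motor neurons, was below 0 on 8 of 8 arrays, at -0.84, -0.26, -0.62 and -2.04 with mutant RNA in Cy5 and at -0.68, -0.64, -0.14 and -0.62 with mutant RNA in Cy3. Its fitted ratio of -0.73 ± 0.21 had an interval from -1.19 to -0.28 and an adjusted p of 0.0725 in limma, short of the threshold. Quantile normalization gave an adjusted p of 0.0477, as a fit on probes with all 8 values gave 0.0452. Lhx2 had 0.70, -0.02, 0.42 and 0.41 with mutant RNA in Cy5, and 0.08, -0.48, 0.24 and 1.59 with mutant RNA in Cy3, so that 6 of 8 values were above 0 and the orientations overlapped. Its fitted ratio was 0.37, with an interval from -0.12 to 0.85 and an adjusted p of 0.380. Lhx9, a factor of gonad and brain development, had -0.76, 0.52, 0.32 and -0.0034 with mutant RNA in Cy5, and 0.36, 1.66, 0.37 and 8.44 with mutant RNA in Cy3, the last on array 8. Its fitted ratio, the highest of the 30, was 1.36, with an interval from -0.15 to 2.87, and it was 0.41 without array 8. Lhx6, a factor of cortical interneurons, stood at 0.14 and Lhx5, of the developing forebrain, at -0.04.

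Msx1 and Msx2 are targets of BMP signals and act in skin appendages, Msx2 in the shaft matrix. Msx2 had -1.79, 0.59, 0.47 and 0.10 with mutant RNA in Cy5, and 0.22, 0.66 and -0.25 with mutant RNA in Cy3, with array 2 far below the others. Its fitted log2 ratio was 0.03, with an interval from -0.60 to 0.66. Since some arrays shared an animal's RNA, this interval is too narrow to set a bound on the change. Its sign was not settled, at -0.01 after median centring and 0.30 without array 2. Msx1 had -0.67, -0.84, -1.13 and -0.75 with mutant RNA in Cy5, and 0.21, -0.09, 0.19 and 0.21 with mutant RNA in Cy3. The orientations did not overlap. The fitted ratio was -0.36, with an interval from -0.71 to -0.01 and an adjusted p of 0.231, and the dye part was -0.49 (adjusted p = 0.0746). Msx3, a gene of the dorsal neural tube, had 4 values between -0.82 and 0.61 and was not tested.

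Among the Dlx genes, which pattern the face, limbs and epidermal appendages, none passed and 2 of 4 were tested. Dlx4 had 2.54, 0.78, 0.52 and 0.34 with mutant RNA in Cy5, and -0.66, -1.09, -0.68 and -0.53 with mutant RNA in Cy3. All values in Cy5 were above 0 and all in Cy3 below. Its fitted ratio was therefore small, at 0.15, with an interval from -0.37 to 0.67, and its dye part of 0.89 was the only one of the 30 past the test (adjusted p = 0.0498), where 4.45% of all probes had a higher dye part past it. Dlx5, a gene of bone and face development, had 1.25, -0.05 and 0.81 with mutant RNA in Cy5, and 0.28, 0.27 and -1.44 with mutant RNA in Cy3. The orientations overlapped, and the fitted ratio was 0.19. Dlx1 and Dlx2, neighbours on chromosome 2, had fewer than 3 values in an orientation and were not tested. Dlx1 had 0.37 and -0.47 with mutant RNA in Cy5, and -0.33 and 5.01 with mutant RNA in Cy3, where array 8 stood far above the rest. Dlx2 had -0.39, -0.01, 0.73 and -0.14 with mutant RNA in Cy5, and 0.33 and -0.33 with mutant RNA in Cy3.

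The dye part, the component of a ratio that follows the orientation, was larger than the fitted ratio in size for 19 of the 30 genes (63.3%), against 59.0% of all probes. Values of the orientations did not overlap for 10 of the 30, against 27.7% of all probes. In 5 of these the ratio was higher with mutant RNA in Cy5, for Dlx4, Hoxc9, Hoxd9, Irx5 and Pitx3. In the other 5 it was higher with mutant RNA in Cy3, for Hoxa2, Hoxa11, Lhx5, Meis3 and Msx1. Over the 43 homeobox genes the values of arrays of the same orientation correlated above 0 in 12 of 12 pairs (median r = 0.50), and those of opposite orientation in 9 of 16 (median r = 0.04), as a description over genes that share arrays and dyes. Over all probes the counts were 12 of 12 (median r = 0.49) and 6 of 16 (median r = -0.02), so this was not particular to the homeobox genes. With the table read as Cy5 over Cy3, the dye part takes the place of the ratio: Dlx4 would then be higher at 0.89, and Vax1 (-0.38) and Six6 (-0.19) would not pass.

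**Figure D2:**
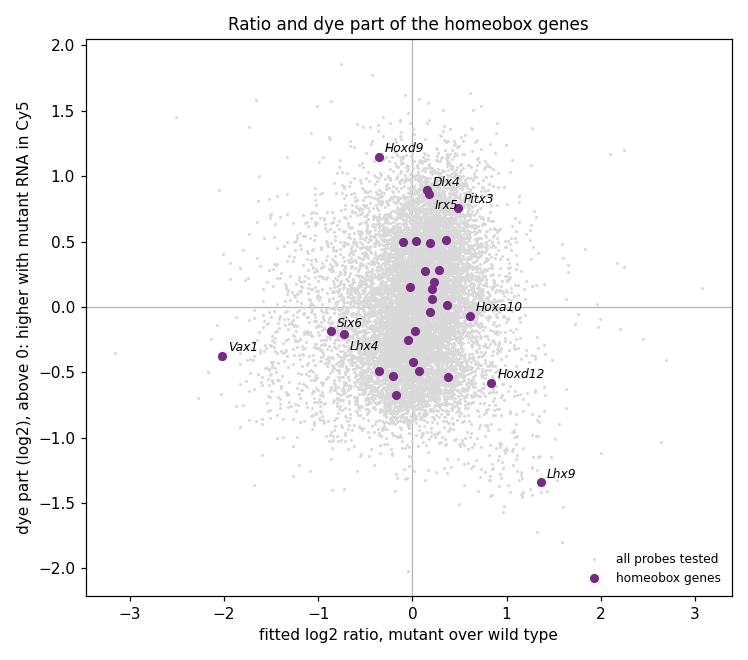
Fitted log2 ratio of mutant over wild type (x axis) and dye part on the log2 scale (y axis, above 0 where the ratio is higher with mutant RNA in Cy5) for the 30 homeobox genes, in purple, over 11974 probes, in grey. Vax1, Six6 and Lhx4 sit to the left near a dye part of 0 (between -0.38 and -0.19), while Hoxd9 at 1.15 and Dlx4 at 0.89 sit at the top at ratios of -0.36 and 0.15.

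Of the 18 Hox genes 13 were tested and none passed, with fitted ratios from -0.36 for Hoxd9 to 0.84 for Hoxd12, 8 above 0 and 5 below. The highest that did not rest on a single array was that of Hoxa10, a gene of the lumbar region and the female reproductive tract. It was 0.45, 1.02, 0.89 and -0.20 with mutant RNA in Cy5, and 0.76, 1.41, 0.27 and 0.27 with mutant RNA in Cy3, so 7 of 8 values were above 0 and the orientations overlapped. The fitted ratio was 0.61 ± 0.21, with an interval from 0.17 to 1.06 and an adjusted p of 0.116 in limma. Hoxd12 had 0.29, 0.10 and 0.37 with mutant RNA in Cy5, and 0.34, -0.0081 and 3.92 with mutant RNA in Cy3, the last on array 8. Its fitted ratio of 0.84 was 0.21 without array 8.

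In the Hoxa cluster on chromosome 6 none of the genes tested passed, and differences between neighbours were not tested. Hoxa5, which acts in the trunk skeleton and lung, was below 0 on 5 of 5 arrays. It had -0.15 and -0.07 with mutant RNA in Cy5, and -1.17, -1.16 and -0.59 with mutant RNA in Cy3, which left it outside the test. Hoxa7 was between -0.28 and 1.72 on 6 arrays and was not tested either. Hoxa11, a gene of limb and uterus, stood at -0.18. Hoxa2, which patterns the hindbrain and second branchial arch, stood at 0.01, with all 4 values below 0 in Cy5 and all 4 above 0 in Cy3.

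The Hoxd cluster on chromosome 2 had the most members, 8, of which 6 were tested. Hoxd9 had values of 1.74, -0.11 and 0.75 with mutant RNA in Cy5, and -0.82, -2.90 and -0.80 with mutant RNA in Cy3, and its dye part of 1.15 was the highest of the 30 (adjusted p = 0.0632). Its fitted ratio of -0.36 had an interval from -1.10 to 0.38, and it was -0.01 without array 3. Hoxd13, the gene of the digits and genital region at the end of the cluster, had 0.61, 0.78, 0.13 and 0.64 with mutant RNA in Cy5, and 0.29, -1.09, -0.79 and -0.29 with mutant RNA in Cy3. Its orientations overlapped and its fitted ratio was 0.03. Hoxd1 at the opposite end had -0.09, -0.82 and -1.27 with mutant RNA in Cy5, and 0.50, 0.81, 0.36 and -0.37 with mutant RNA in Cy3, for a fitted ratio of -0.20. Hoxd3 was at -3.39 and -3.37 on arrays 4 and 6 and at -0.12 on array 7 with mutant RNA in Cy5, against 0.56 and -1.14 on arrays 5 and 8, and lacked the values to be tested. Its neighbour Hoxd4 stood at 0.07, Hoxd10 at 0.23, and Hoxd11, untested, was between -0.16 and 0.75 on 6 arrays. In chromosomal order the means over arrays were 0.03 for Hoxd13, 0.84 for Hoxd12, 0.16 for Hoxd11 and 0.23 for Hoxd10. They were then -0.36 for Hoxd9, 0.07 for Hoxd4, -1.49 for Hoxd3 and -0.13 for Hoxd1. The mean of Hoxd12 held the value of 3.92 on array 8. An order along the cluster was not tested.

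**Figure D3:**
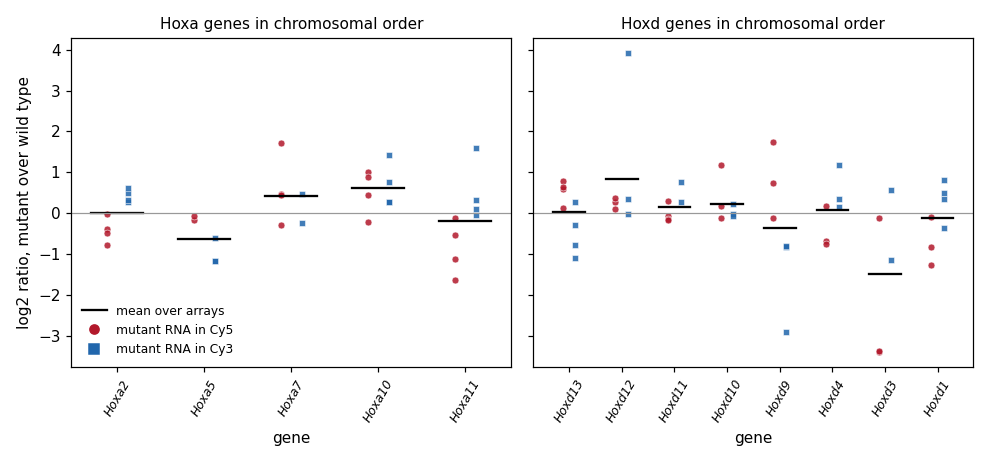
Log2 ratio of mutant over wild type (y axis) on each array for 5 Hoxa and 8 Hoxd genes with at least 3 values (x axis, in chromosomal order), with circles for mutant RNA in Cy5, squares for mutant RNA in Cy3 and black bars for the mean over arrays. Hoxa10 has 7 of 8 values above 0, Hoxa5 has 5 of 5 below 0, and Hoxd3 spans from -3.39 to 0.56.

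Of the Hoxb and Hoxc genes, Hoxb5 ran from -0.42 to 0.79 with a fitted ratio of 0.19, Hoxc4 from -0.51 to 2.07 with a ratio of 0.36, and Hoxc9 from -1.68 to 0.81 with a ratio of -0.10. None of the 3 was near the threshold. Hoxb13, which is expressed in hair follicles and tail skin of mouse, had -2.85, -0.36 and -0.69 with mutant RNA in Cy5 and 2.24 on the single array with mutant RNA in Cy3.

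The Iroquois, Pitx and Meis genes had fitted ratios above 0 in all 5 members tested, as had 20 of the 30 homeobox genes and 55.0% of all probes. None of the 5 passed the threshold. Pitx3, a factor of the lens and of dopamine neurons, was 1.21, 1.25 and 1.25 with mutant RNA in Cy5, and -0.18, -1.29, -0.61 and 0.98 with mutant RNA in Cy3. Its ratio of 0.48 had an interval from -0.08 to 1.04 and a dye part of 0.76. Pitx1, a gene of hindlimb identity, had 1.41, 0.53, -0.13 and 0.42 in Cy5, and 0.43, -0.52, 0.33 and -0.24 in Cy3, for a ratio of 0.28 with an interval from -0.17 to 0.73. Irx5 split by dye, with 1.10, 0.58 and 1.45 in Cy5 and -0.31, -1.68, -0.64 and -0.13 in Cy3, and a ratio of 0.18 (dye part 0.87, adjusted p = 0.0517). Its neighbour Irx3 had 1.08, -0.0022, 0.51 and -0.50 in Cy5, and 0.36, 0.33 and -0.23 in Cy3, for a ratio of 0.21, and here the orientations overlapped. Irx4, untested, had 1.17, 0.89, 0.08 and 0.38 in Cy5, and -0.88 and 0.23 in Cy3. Meis proteins are partners of Hox proteins on DNA. Meis3 had -0.09, -0.34 and -0.05 in Cy5, and 0.93, 1.33 and 0.48 in Cy3, for a ratio of 0.38. Meis1 had -0.43, -0.09 and 1.27 in Cy5, and -0.08 and 1.96 in Cy3. Meis2 had 0.10 and 1.13 in Cy5, and 0.11 in Cy3, so that neither had the values to be tested. Lhx1 (5 values, -1.23 to 0.61) and Lhx3 (5 values, -0.37 to 0.02) complete the 13 untested genes.

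**Figure D4:**
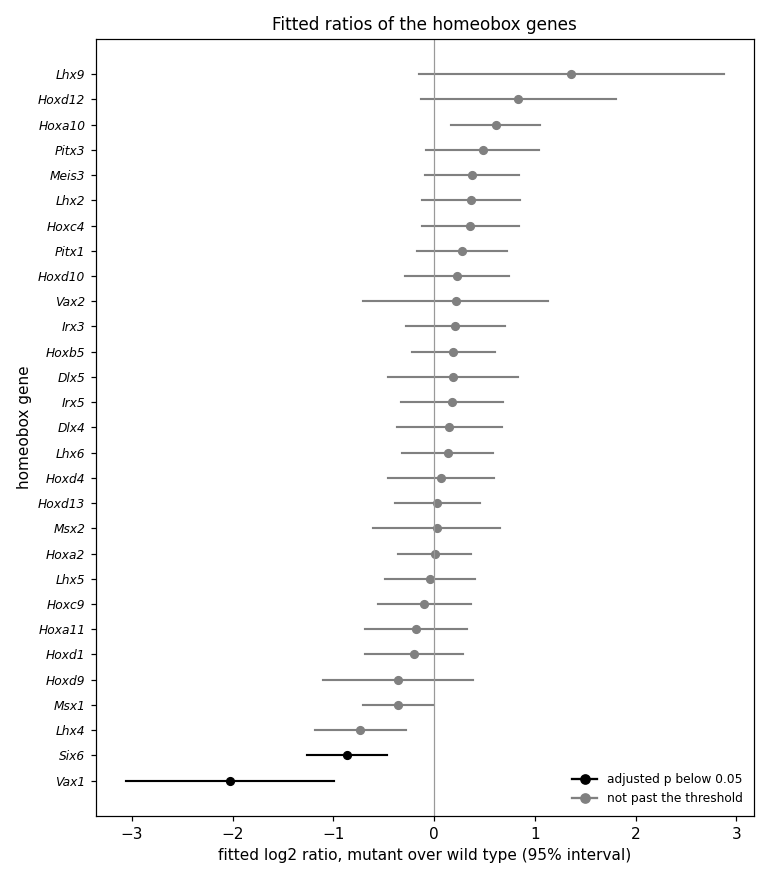
Fitted log2 ratio of mutant over wild type with its 95% interval (x axis) for 29 homeobox genes tested (y axis), in black where the adjusted p is below 0.05 and in grey otherwise. Vax1 and Six6 are in black, with intervals from -3.06 to -0.99 and from -1.27 to -0.47.

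Intervals, too narrow since arrays shared animals, lay wholly between -1 and 1 on the log2 scale for 21 of the 30 genes. The share over all probes was not computed, and the median standard error was 0.22, against 0.23 over all probes. All values had the same sign for 5 of the 43 genes, Vax1, Six6, Lhx4, Hoxa5 and Meis2, or 11.6%, against 9.55% of all probes with at least 3 values. Over the arrays of a gene the median SD was 0.71 for the homeobox genes and 0.70 for all such probes. The median of the homeobox genes was lowest on array 3 (-0.51) and highest on array 1 (0.23), and averaged -0.02 ± 0.22 (SD, n = 8 arrays). Between 62.8% and 97.7% of the homeobox genes had a value on an array, against 42.7% to 92.6% of all probes, with the lowest share on array 3 for both. These sets are unlike, since the homeobox genes were kept for values on at least 3 arrays and all probes were not.

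Homeobox genes outside these families, a list of 111, had 35 genes tested, with 1 lower and 0 higher, where 3.53% of all probes were lower and 0.676% higher. Their median was -0.06, against 0.05 over all probes. Nkx2-2, a factor of ventral neural tube and pancreas, fell to a ratio of -1.30 ± 0.23 (adjusted p = 0.00888 in limma) and was below 0 on 7 of 7 arrays. Tlx3 at -1.83, Otp at -0.86 and Satb1 at 0.85 did not pass. The Hox cofactors Pbx2 and Pbx3 stood at 0.09 and -0.11. Of 24 regulators of Hox chromatin 10 were tested, and 1 was lower and 0 higher, where 3.53% of all probes were lower and 0.676% higher. It was Ash2l, a subunit of histone H3 lysine methyltransferases that activate Hox genes, at -1.49 ± 0.22 (adjusted p = 0.00529, below 0 on 6 of 6 arrays). Cbx8 at 0.50 and the Polycomb gene Bmi1 at 0.42 did not pass, and the median of the 10 was 0.03, against 0.05 over all probes.

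Genes known to lie downstream of Hoxc13, Msx2, Dlx3 or Lhx2 in the follicle, a list of 27, had 11 tested, of which 4 were lower and none higher, where 3.53% of all probes were lower and 0.676% higher. Their median was -0.28, against 0.05 over all probes. The list was chosen with earlier results of these data known, so these counts cannot serve as evidence about such genes as a class. The 4 were the shaft genes Krtap15 (-1.33), Krtap14 (-1.28), Krt31 (-1.27) and Krtap9-1 (-1.26). The forkhead gene Foxn1, a Msx2 target in mouse, stood at 0.47 with an adjusted p of 0.151, and Krt35 at 0.63 and Krt33a at -0.58 did not pass. Their difference from the fitted ratios of Msx2 and Lhx2 was not tested.

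The 51 markers of 11 skin cell types were read for the tissue itself. Values were present for 31 of them, and every list except that of blood had at least 1 gene tested. Spot intensities were not analysed here, so neither these counts nor the ratios show which cell types were present or absent. Of 27 tested, Krt1, Vim and Cfd were higher, and Krtap15, Krt31, Krtap9-1, Krt71, C1qb and Mbp were lower, where 0.676% of all probes were higher and 3.53% lower. The 5 hair shaft markers tested were all in the downstream list above as well, so their calls are the same ones. Of these, 3 were lower and the other 2 missed the threshold (Krt33a -0.58, Krt35 0.63). Also lower were Krt71 of the inner root sheath at -0.79, the immune marker C1qb at -1.37 and the nerve marker Mbp at -0.90. Only 1 gene passed in each of those lists, as in the keratinocyte list. Of 3 immune markers tested 2 were fitted below 0 and 1 above, and of 3 keratinocyte markers 2 above and 1 below. These markers, too, were chosen with earlier results of these data known. Their part in the ratios of the homeobox genes was not tested.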

How the data were processed

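RNA of mutant and wild type mouse skin was compared on 8 arrays with 2 colours. Labelling and hybridization followed standard TIGR protocols, per the labels. The authors deposited 1 log ratio per spot and array, taken here as log2, and no source used here gives their base, direction, image analysis, normalization or treatment of missing spots. Of 23232 rows, 1235 control spots were left out and 232 Gapdh spots averaged. Names came from RefSeq accessions (assembly GRCm38.p6, 6516 probes) or synonyms (77), and 15173 probes stayed unnamed. Between 41.3% and 88.3% of rows had a value on an array, and column SDs over probes ran from 0.57 to 1.60.

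Probes measured on 3 or more arrays in both dye orientations were fitted in limma 3.58.1 (R 4.3.3) with terms for ratio and dye, empirical Bayes moderation and Benjamini-Hochberg adjustment over all probes, at 0.05. The fit was tested on simulated data. The members and lists were chosen with earlier results of these data known. Array values are printed for genes past the threshold, the 6 highest and 6 lowest fitted ratios, and genes known in skin or follicle, and for others chosen after their values were seen (such as Hoxd3); listed genes outside the families are named where they passed, with up to 3 others by size, and Hox cofactors were added after their values were seen. Values of a few members and listed genes are not reported here, though all counts include them. Promoters use the first start listed for a gene. Alternatives covered scaling, filters, the dye term, array weights, the reading of the table and leaving out arrays.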

Additional observations from a re-analysis of the deposited data

Results flagged for a closer look

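Of 43 sets of values over arrays that could be examined, the medians of the homeobox genes included, 10 had a single array apart from the rest by Dixon's criterion. About 1 set in 20 is picked out by chance, which is 2.15 sets here. Array 8 stood apart for Lhx9 at 8.44 (next highest 1.66), Dlx1 at 5.01 (next 0.37) and Hoxd12 at 3.92 (next 0.37). Array 2 did so for Vax1 at -5.56 (next lowest -2.36), Msx2 at -1.79 (next -0.25) and Hoxa7 at 1.72 (next highest 0.47). Array 3 stood apart for Hoxc9 at -1.68 (next lowest -0.28) and for the median of the homeobox genes at -0.51 (next -0.07). Lhx4 was at -2.04 on array 7 (next lowest -0.84) and Hoxd10 at 1.18 on array 4 (next highest 0.23). Arrays 2, 3 and 8 had the widest spreads over all probes, with SDs of 1.60, 1.33 and 1.11.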

How the results depend on the processing

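No homeobox gene was higher past the threshold, and Vax1 and Six6 lower, after median centring, after scaling arrays to equal spread, without the dye term and among named genes alone. The count of lower homeobox genes was 1 with the looser filter on missing values (Six6, 43 genes tested), 4 with array weights (Lhx4 and Msx1 added), 0 on arrays 4 to 8 alone, and 0 to 2 without 1 array. With array weights 1 was higher, Hoxa10, and with ratios read as Cy5 over Cy3, 1 was higher, Dlx4, and 0 lower. Without array 1 neither Vax1 nor Six6 passed. Over all probes, 504 called became 776 with equal spread, 1137 with quantile normalization, 258 without the dye term and 131 among named genes. They became 46 on arrays 4 to 8, 1556 with array weights (527 higher, 1029 lower) and 238 to 502 without 1 array. Read as Cy5 over Cy3, 640 were called, 533 higher and 107 lower. The median homeobox ratio, 0.14 in the fit, ran from -0.01 (read as Cy5 over Cy3) to 0.17 (without array 3) over the alternatives. With array weights it was 0.05. Its shifts were smaller than the SD of array medians, 0.22, but that margin exceeds the ratio itself. The cause of these changes was not tested, except that fewer probes or arrays entered some fits.

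Signs turned for 17 of the 30 genes, 11 of them in an alternative other than the reading as Cy5 over Cy3, and no turned value passed the threshold. Read as Cy5 over Cy3, Hoxd9 was at 1.15, Hoxc9 at 0.50, Hoxa2 at -0.42, Msx2 at -0.19, Hoxd4 at -0.49, Hoxb5 at -0.039, Meis3 at -0.54, Hoxa10 at -0.069, Hoxd12 at -0.58 and Lhx9 at -1.34. On arrays 4 to 8, Hoxc9 was at 0.0079, Hoxd13 at -0.011, Dlx4 at -0.030 and Dlx5 at -0.10. With array weights, Hoxd13 was at -0.019, Hoxd4 at -0.11, Dlx4 at -0.011 and Vax2 at -0.25. Median centring gave Hoxa2 -0.0091 and Msx2 -0.0081, quantile normalization Vax2 -0.0050, and no dye term Msx2 -0.00017. Without 1 array in turn the ranges were -0.16 to 0.086 for Hoxc9, -0.10 to 0.019 for Lhx5, -0.059 to 0.068 for Hoxa2, -0.10 to 0.30 for Msx2, -0.092 to 0.14 for Hoxd13, -0.084 to 0.18 for Hoxd4, -0.0021 to 0.25 for Lhx6, -0.10 to 0.27 for Dlx4 and -0.32 to 0.65 for Vax2. Each ratio already pairs mutant with wild type RNA on 1 array. Beyond that, no block by animal could be fitted, since the labels tie no array to an animal. The number of arrays, and signals of unknown height over background, limit the precision.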
